A study of Mus musculus with 17 samples.

Results

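The promoters described here are low-CpG promoters of genes outside the chemosensory receptor families. They were taken as the start sites that the authors classed as LCP, read here as low-CpG promoter, less those of genes whose symbol begins with Olfr, Vmn, Tas1r, Tas2r or Taar (odorant, vomeronasal, taste and trace amine receptors). After repeats were taken once this left 2088 promoters, or 12.7% of the 16482 classed promoters and 73.7% of the 2833 low-CpG ones. No measured signal entered the choice. The other classes set beside them are the 745 low-CpG receptor promoters and, outside the receptor families, 2860 intermediate-CpG and 10571 high-CpG promoters.

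The study digested chromatin with micrococcal nuclease (MNase), an enzyme that cuts the DNA between nucleosomes, and sequenced the released fragments from both ends. The standard sperm library was the supernatant of C57/B6J sperm taken at 10 weeks from the cauda epididymis and vas deferens, crosslinked with 1% formaldehyde for 15 min and digested for 5 min. It was set against the spun supernatant of E14 embryonic stem (ES) cells, a line of strain 129 X Ola grown with serum and LIF on gelatin without feeder cells. A titration of C57/B6J sperm followed with 0.5, 2, 10 and 50 units without a spin (unspun), and with 1, 5, 20 and 100 units parted by a spin at 5000 g into supernatant and pellet. The titration sperm were also taken at 10 weeks, crosslinked with 1% formaldehyde for 15 min and digested for 5 min. The ES cells were digested for 5 min as well. The standard digestion used 1000 times more enzyme per cell for ES cells than for sperm. Cell type, strain, crosslinking and enzyme dose all differ between the sperm and ES cell libraries and cannot be told apart. Of the 17 samples, 14 had a table. An unspun ES cell library, a sonicated sperm input and a histone H3 immunoprecipitation were not analysed here. Each group was 1 library, so there is no replicate error, and intervals are 95% and cover counting error only.

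Low-CpG promoters lie outside CpG islands and serve mostly genes used in one or a few tissues, such as those for hormones, digestive enzymes, keratins and immune receptors. In most cells they carry DNA methylation and lack the open, nucleosome-free start site of CpG-island promoters. In sperm most histones have been replaced by protamines, and MNase is used to release what is still wrapped in nucleosomes.

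Signal is given as fragments, the table sum over 1000 bp to each side of the start site divided by what an isolated fragment adds (22 in the pileup tables of the ES, standard sperm and unspun libraries, 3.02 in the count tables of supernatant and pellet). The mean promoter of the set held 30.05 fragments in standard sperm and 40.99 in ES cells, but only 0.151 to 1.04 fragments in the 12 titration libraries. In those libraries 34.4% to 85.6% of the 2088 promoters had no fragment, so they were read as sums over promoters. Of the 2088 promoters, 132 (6.32%) lie within 4000 bp of another classed start site, compared with 12.4% of all classed promoters. A symbol was found for 2034, and 54 had none.

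The deposited files hold no sequence. RefSeq promoters (GRCm38.p6, 250 bp before to 50 bp after the start) were matched by gene identifier. Of the set, 1286 promoters of 1284 genes had exactly 1 entry. Their median GC content was 50.0%, between 34.7% for the low-CpG receptor promoters and 62.3% for the high-CpG ones, and 51.3% for the intermediate-CpG ones. The median promoter held 3 CpG dinucleotides, with an observed-to-expected ratio of 0.174, against 0.101 for the receptor promoters, 0.337 for the intermediate-CpG and 0.795 for the high-CpG ones. The letters TATAAA on the gene's strand, starting 20 to 40 bp before the start, stood in 118 of 1284 (9.19%), against 1.08% of receptor, 5.42% of intermediate-CpG, 1.24% of high-CpG and 2.87% of all classed promoters with 1 entry. On either strand anywhere in the 300 bp, TATAAA stood in 21.03%, against 41.8% of receptor promoters and 12.7% of all classed ones. Promoters on which results given later rest are printed 5′ to 3′, with CpG dinucleotides and the TATAAA before the start site in capitals: the highest ratio of standard sperm to ES cells, the lowest ratio among promoters with 1 RefSeq entry, and the TATAAA promoter with the most signal.
Skint9, chr4:112433936-112434235, minus strand: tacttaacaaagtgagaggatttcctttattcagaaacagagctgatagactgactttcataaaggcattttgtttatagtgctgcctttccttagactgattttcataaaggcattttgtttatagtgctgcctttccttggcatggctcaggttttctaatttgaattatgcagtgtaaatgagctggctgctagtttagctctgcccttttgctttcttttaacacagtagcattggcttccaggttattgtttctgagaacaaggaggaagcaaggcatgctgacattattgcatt
Slc38a8, chr8:119501649-119501948, minus strand: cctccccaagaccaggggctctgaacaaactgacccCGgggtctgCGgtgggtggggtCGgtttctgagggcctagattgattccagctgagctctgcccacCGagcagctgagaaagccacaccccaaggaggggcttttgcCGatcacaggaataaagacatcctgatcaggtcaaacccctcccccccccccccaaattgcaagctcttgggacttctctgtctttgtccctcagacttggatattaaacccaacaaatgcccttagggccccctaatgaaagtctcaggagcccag
Trpm8, chr1:88306485-88306784, plus strand: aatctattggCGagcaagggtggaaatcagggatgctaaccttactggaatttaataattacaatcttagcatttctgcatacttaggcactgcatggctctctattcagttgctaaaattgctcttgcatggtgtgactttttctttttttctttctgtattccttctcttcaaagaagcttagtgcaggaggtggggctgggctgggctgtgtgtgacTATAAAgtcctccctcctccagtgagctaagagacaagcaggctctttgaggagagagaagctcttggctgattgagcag
The Skint9 promoter holds no CpG and 38.3% GC, that of Slc38a8 holds 5 CpGs and 56.7% GC, and that of Trpm8 holds 1 CpG, 44.3% GC and TATAAA 30 bp before its start.

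In the standard digests the set took a larger share of promoter signal in sperm than in ES cells. It held 16.96% (interval 16.84% to 17.09%) of the signal at classed promoters in standard sperm and 15.2% (15.1% to 15.3%) in ES cells, or 1.339 and 1.197 times its share of promoter number. The log2 ratio of the shares was 0.16 (0.15 to 0.18), a fold of 1.12. The receptor promoters stood further apart, at 9.57% in standard sperm and 5.82% in ES cells (log2 0.72). The intermediate-CpG promoters had 21.6% and 20.5% (log2 0.08) in standard sperm and ES cells, and the high-CpG ones 49.4% and 56.9% (log2 -0.20). These intervals do not overlap between any pair of classes, but with 1 library on each side the differences have no replicate check. The fold is smaller over other windows, with log2 0.0897 for 200 bp and 0.0879 for 2000 bp to each side, and it is 0.24 when receptor promoters are left out of the total.

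In the titration the share of the set fell with dose in all 3 series. It was 15.1%, 13.9%, 13.1% and 11.3% at 0.5, 2, 10 and 50 units in unspun sperm. In the supernatant it was 15.0%, 14.3%, 13.7% and 12.9% at 1, 5, 20 and 100 units, and in the pellet 13.6%, 12.6%, 11.3% and 10.2% at the same doses. No step went the other way. The share at the highest dose was 0.748 times that at the lowest in unspun sperm, 0.861 times in the supernatant and 0.748 times in the pellet. The shared slope was -0.05 log2 per doubling of dose (-0.06 in unspun sperm, -0.03 in the supernatant and -0.06 in the pellet). Among all 13824 orderings of the doses within the series only the observed one was as extreme, so its exact two-sided permutation p of 7.23e-05 is the smallest possible, and the Benjamini-Hochberg adjusted p over 6 measures was 2.17e-04. With the supernatant and pellet of a dose, which the protocol parts by a spin, reordered together, the exact permutation p over 576 orderings was 0.00174, the smallest possible, and the adjusted p was 0.00521. No titration library reached the share of standard sperm. Against the ES cell share the log2 ratio was -0.01 (-0.07 to 0.06) at 0.5 units unspun, -0.01 (-0.09 to 0.06) at 1 unit in the supernatant and -0.16 (-0.32 to 0.00) at 1 unit in the pellet. At the highest doses it was -0.43, -0.23 and -0.58.

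**Figure D1:**
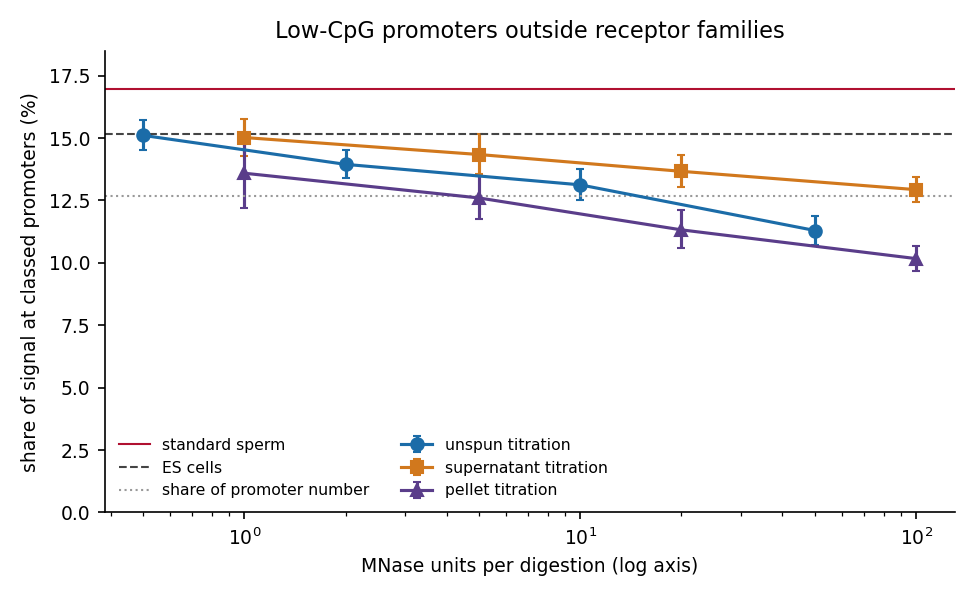
Share of the signal at classed promoters (%) that low-CpG promoters outside receptor families held, by MNase units (log axis), for the unspun, supernatant and pellet series, with exact binomial intervals; horizontal lines give standard sperm (16.96%), ES cells (15.2%) and the set's share of promoter number (12.7%). The share falls with dose in all 3 series and ends below the share of promoter number in the unspun (11.3%) and pellet (10.2%) series.

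The set lost share relative to high-CpG promoters and lost less than the receptor promoters. The slope of its share minus that of the high-CpG promoters was -0.09 log2 per doubling (exact permutation p = 7.23e-05, adjusted p = 2.17e-04), with -0.09, -0.06 and -0.10 in the unspun, supernatant and pellet series. The slope minus that of the low-CpG receptor promoters was 0.10 (exact permutation p = 0.00998, adjusted p = 0.0120), with 0.03, 0.16 and 0.12 in the 3 series. With supernatant and pellet reordered together the adjusted exact p was 0.05, exactly at the threshold. This call is lost without the lowest dose (slope 0.0745, adjusted exact p = 0.213), without the third dose (0.10, adjusted exact p = 0.0556), without the supernatant series (0.0763, adjusted exact p = 0.102) and without the pellet series (0.0947, adjusted exact p = 0.106). Minus the intermediate-CpG promoters the slope was -0.01 (exact permutation p = 0.0873), which missed the threshold of 0.05 and does not show that both sets responded alike. It was -0.02 in the unspun series, 0.00 in the supernatant and -0.02 in the pellet. In single series the low-CpG receptor share had slopes of -0.09, -0.19 and -0.19, the intermediate-CpG share -0.04, -0.04 and -0.04, and the high-CpG share 0.03, 0.03 and 0.04.

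At each dose the set held a larger share in the supernatant than in the pellet. The log2 ratio of supernatant to pellet was 0.14 (-0.03 to 0.33) at 1 unit, 0.19 (0.05 to 0.32) at 5, 0.27 (0.15 to 0.40) at 20 and 0.35 (0.25 to 0.44) at 100 units. The order held at 4 of 4 doses, and 4 pairs cannot reach p of 0.05 in an exact sign-flip test. The high-CpG promoters had ratios of -0.05, -0.06, -0.06 and -0.09 at the same doses, and the intermediate-CpG ones 0.07, 0.02, 0.08 and 0.12. For the low-CpG receptor promoters the 4 values were -0.05, 0.01, -0.29 and 0.00. With the bins of the count tables read as 20 bp, the ratio at 100 units was 0.22 in place of 0.35.

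The start site itself was shallowly depleted in the standard digests, and in unspun sperm it was filled at 2 units or more. Density over the 200 bp before the start site, divided by that over the flanks at 1000 to 2000 bp on both sides, was 0.790 (0.769 to 0.812) in standard sperm and 0.889 (0.869 to 0.910) in ES cells. Over the 300 bp after it the ratio was 0.725 (0.708 to 0.743) in standard sperm and 0.884 (0.868 to 0.902) in ES cells. In bins of 20 bp the lowest point was 0.684 of the flanks, 50 bp after the start site, in standard sperm and 0.853, 10 bp before it, in ES cells. Upstream, both trenches are shallower than over all classed promoters, where the ratio was 0.487 in standard sperm and 0.535 in ES cells. The high-CpG promoters had 0.291 and 0.346 and the intermediate-CpG ones 0.686 and 0.808. The low-CpG receptor promoters had still shallower values than the set upstream, at 0.951 and 1.01, but lower ones downstream, at 0.586 and 0.752. In the supernatant at 1 unit the lowest bin of 100 bp also lay at the start site, at 0.817 of the flanks and 50 bp before the start, where ES cells had 0.862. In the other supernatant libraries and in the pellet the lowest bin lay 250 to 850 bp from the start site. In unspun sperm the profile had no such trench at any dose. Its highest bin was 1.15 times the flanks at 390 bp after the start site for 0.5 units, and from 2 units upwards it lay close to the start site, at 1.37 times (30 bp before), 1.40 times (10 bp after) and 1.49 times (110 bp after) for 2, 10 and 50 units.

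**Figure D2:**
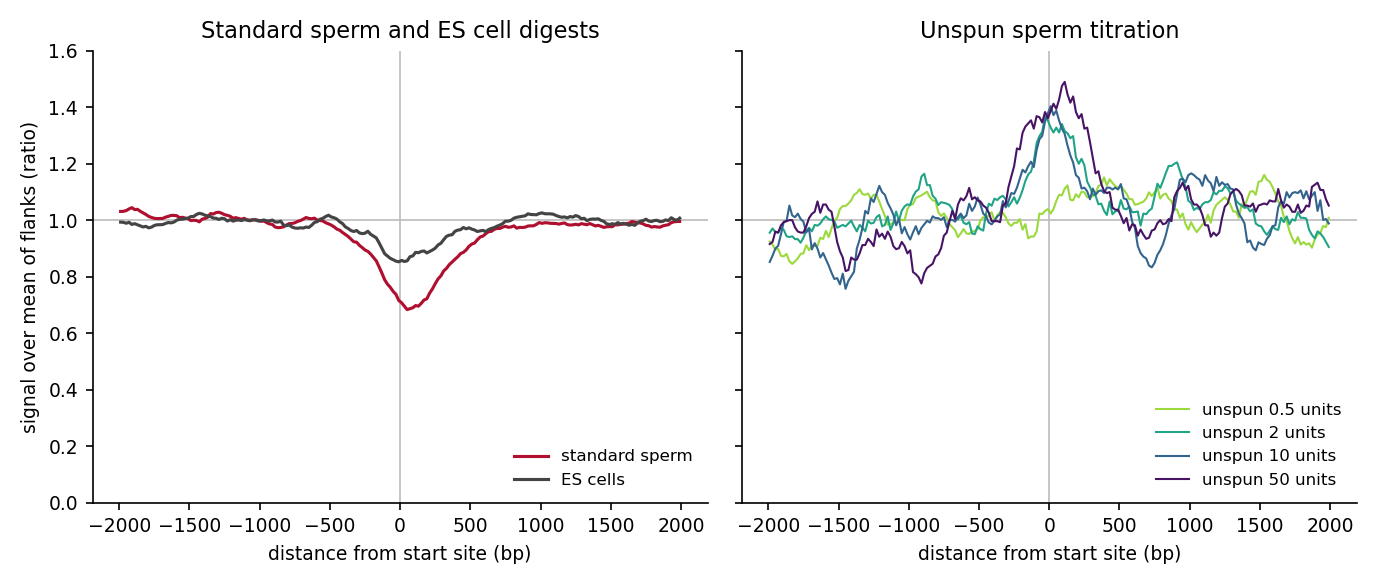
Summed signal of the 2088 low-CpG promoters outside receptor families divided by the mean of the flanks at 1000 to 2000 bp, by distance from the start site in bp, for standard sperm and ES cells (left) and unspun sperm at 4 doses (right). The standard digests dip to 0.684 (sperm) and 0.853 (ES cells) at the start site, and the unspun digests of 2 to 50 units peak there at 1.37 to 1.49.

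The upstream ratio rose with dose over the series together. At the lowest dose its interval held 1 in unspun sperm (0.847 to 1.14), the supernatant (0.724 to 1.07) and the pellet (0.534 to 1.20). At the highest dose it lay above 1 in unspun sperm (1.14 to 1.59) and the pellet (1.10 to 1.54). In the supernatant it still held 1 there (0.955 to 1.28). The upstream ratio was 0.985, 1.24, 1.25 and 1.35 at 0.5, 2, 10 and 50 units in unspun sperm. At 1, 5, 20 and 100 units it was 0.881, 1.06, 1.08 and 1.11 in the supernatant, and 0.829, 1.08, 0.990 and 1.31 in the pellet. The shared slope was 0.06 log2 per doubling (exact permutation p = 0.00174, adjusted p = 0.00260). The downstream ratio was 1.08, 1.26, 1.24 and 1.40 in unspun sperm, 1.01, 1.03, 1.02 and 1.42 in the supernatant and 0.919, 1.04, 1.19 and 1.45 in the pellet. Its slope was 0.07 (exact permutation p = 0.00130, adjusted p = 0.00260). Between highest and lowest dose the upstream ratio differed by 1.37, 1.26 and 1.58 times in the unspun, supernatant and pellet series, and the downstream ratio by 1.29, 1.40 and 1.58 times. Both calls are lost without the lowest dose (upstream 0.0359 with adjusted exact p = 0.125, downstream 0.0822 with adjusted exact p = 0.0556) and without the highest (0.0697 with adjusted exact p = 0.0625 and 0.0438 with adjusted exact p = 0.0880). The ratios rest on 28.5 to 224 fragments upstream in each titration library, and isolated signal in the 1-unit count tables was narrower than in the others. For the low-CpG receptor promoters the same slopes were -0.02 upstream and 0.10 downstream. For the high-CpG promoters they were 0.10 and 0.22, and for the intermediate-CpG ones 0.04 and 0.09, and the difference between classes was not tested.

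**Figure D3:**
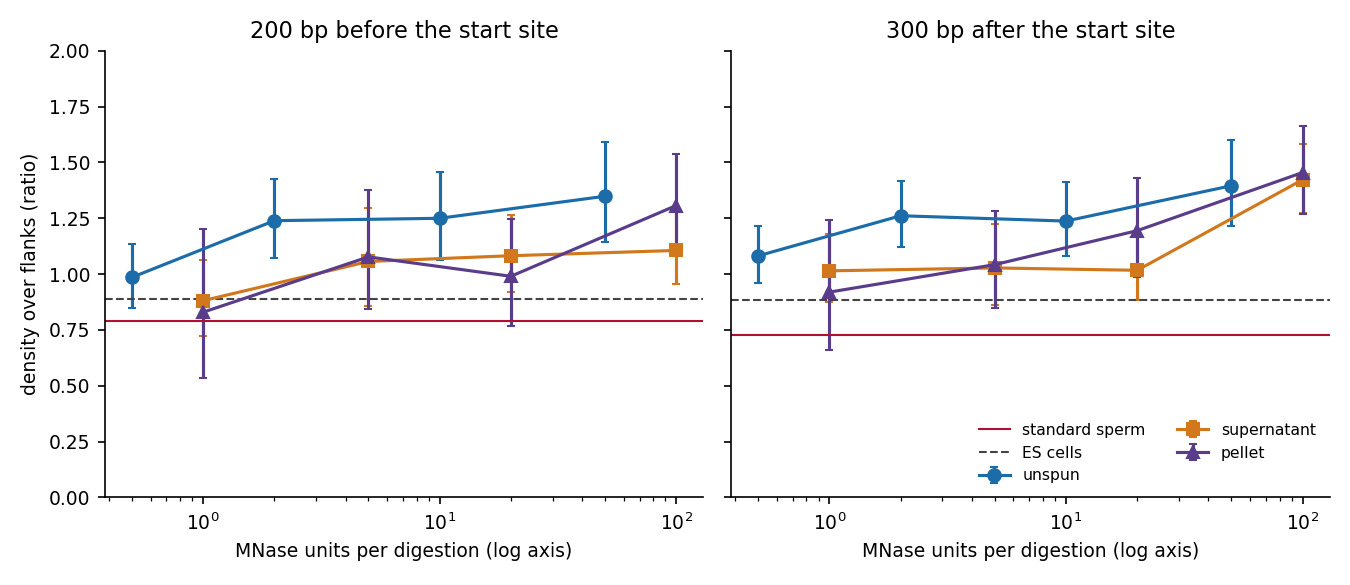
Density over the 200 bp before (left) and the 300 bp after (right) the start site divided by that over the flanks, by MNase units (log axis), for the 2088 promoters summed, with counting intervals; lines mark standard sperm (0.790 and 0.725) and ES cells (0.889 and 0.884). At the highest doses the ratios reach 1.11 to 1.35 upstream and 1.40 to 1.45 downstream.

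The upstream ratio of single promoters was widely spread, but each rests on few fragments. The 200 bp before the start site held 5486 fragments in standard sperm and 7934 in ES cells over all 2088 promoters. Counting error was not separated from differences between promoters. The 1561 promoters that met a minimum of 20 flank fragments were read. The ratio was 0.5 or less in 34.4% in standard sperm and in 32.2% in ES cells, and 1 or more in 26.4% and 37.1%. The median promoter stood at 0.686 in standard sperm and 0.780 in ES cells. In both libraries 250 promoters (16.02%) were at 0.5 or less, against 22.0% of intermediate-CpG, 65.5% of high-CpG and 5.47% of low-CpG receptor promoters. Of the intermediate-CpG promoters 43.3% in standard sperm and 36.7% in ES cells were that low, and of the high-CpG ones 80.5% and 76.0%. Of the low-CpG receptor promoters 13.4% and 20.9% were. The 118 promoters with TATAAA before the start had an upstream ratio of 0.864 (0.777 to 0.962) in standard sperm and 1.04 (0.947 to 1.14) in ES cells. Those without it had 0.789 (0.761 to 0.819) in standard sperm and 0.903 (0.875 to 0.930) in ES cells. Their log2 ratios of standard sperm to ES cells were 0.34 (0.28 to 0.40) with and 0.18 (0.16 to 0.20) without TATAAA. These splits were not tested.

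Standard sperm signal was more unequal between promoters than that of ES cells. The middle 50% of the promoters held 18.1 to 38.8 fragments in standard sperm, around a median of 26.7, and 30.7 to 50.8 in ES cells, around a median of 39.8. The variance over the mean was 8.80 in standard sperm and 5.77 in ES cells. Across the 2088 promoters, which are not independent replicates, Spearman's rho between the libraries was 0.53. The deepest promoter in both was that of 4931408C20Rik, with 168 fragments in standard sperm and 160 in ES cells and an upstream ratio of 4.07 and 9.96. It also had 32.8 fragments in the pooled unspun series. Next in standard sperm came Trpm8, the cold-sensing channel, with 150 fragments against 94.0 in ES cells, and Ugt1a1, the enzyme that conjugates bilirubin, with 116 against 67.9. Skint9 and Mettl21e, a methyltransferase gene, followed with 91.4 and 87.2 fragments in standard sperm. In ES cells the promoters after 4931408C20Rik were Gm9733 (74.1 fragments in standard sperm, 110 in ES cells), Crxos (27.3 and 102) and Acrv1, an acrosomal protein gene of spermatids (50.6 and 94.8).

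At the highest doses of the titration, promoters with little standard sperm signal held more than promoters with much of it. The 522 promoters with the most standard sperm signal (38.8 to 168 fragments) held 31.6% of the set's signal in ES cells, and the 522 with the least (18.1 fragments or fewer) held 18.9%. In unspun sperm the upper 522 held 24.1% and the lower 522 held 23.99% at 0.5 units, but 20.99% and 32.5% at 50 units. In the supernatant the upper group held 30.3% and the lower 19.8% at 1 unit, but 17.4% and 33.2% at 100 units. In the pellet both held 25.03% at 1 unit, and the upper held 16.3% and the lower 33.4% at 100 units. The intervals of both groups overlap at 0.5 units unspun and at 1 unit in the pellet and are apart at the highest dose of each series. Ranked by ES cell signal, the lower promoters also led at the highest doses. The upper 522 held 28.4% and the lower 522 held 20.4% at 0.5 units unspun, but 21.2% and 26.7% at 50 units. They held 21.1% and 26.9% at 100 units in the supernatant and 17.97% and 27.1% at 100 units in the pellet, with intervals apart in all 4 cases. This split was chosen after the values were seen and was not tested, and base composition could be read for too few promoters to set beside it.

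**Figure D4:**
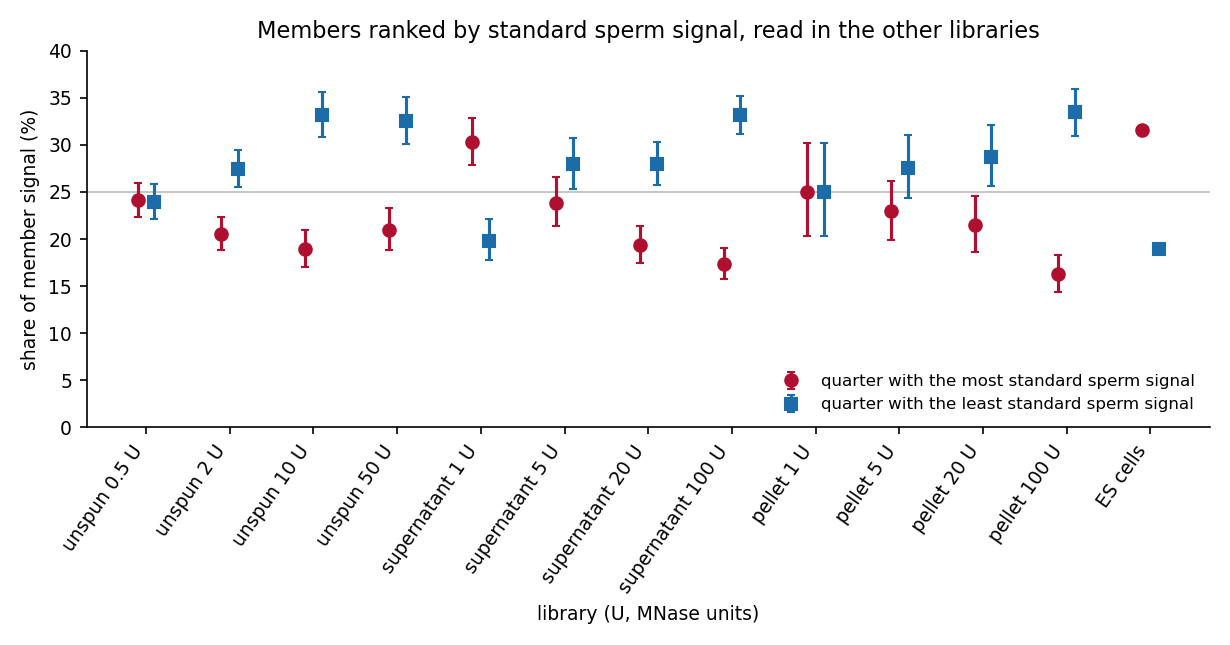
Share of the set's signal (%) held in each other library by the 522 promoters with the most (circles) and the 522 with the least (squares) standard sperm signal, with exact binomial intervals; the line marks 25%. The upper group leads in ES cells (31.6% against 18.9%) and at 1 unit in the supernatant, and the lower group leads at the highest dose of each series (32.5% to 33.4%).

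Between standard sperm and ES cells most promoters of the set differed little. Of the 1597 with at least 50 fragments in both libraries together, 132 (8.27%) were at least 2-fold higher in standard sperm and 58 (3.63%) at least 2-fold lower, after adding 1 fragment to each. Over all 9059 classed promoters so read the shares were 6.40% higher and 5.24% lower. The exact interval of the ratio lay above 0 for 337 promoters (21.1%, against 15.9% of all) and below 0 for 130 (8.14%, against 10.4%). The median log2 ratio was 0.12, against 0.02 for all classed promoters and 0.72 for the low-CpG receptor promoters. The counts depend on the window, with 286 higher and 149 lower for 200 bp and 75 higher and 33 lower for 2000 bp to each side.

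The highest ratios stood at promoters with little or no ES cell signal. The start site of Skint9 (chromosome 4, 112106590 in mm9), of a family of skin and thymus proteins that shape epithelial T cells, had 91.4 fragments in standard sperm and none in ES cells, so its share was at least 46.5-fold higher in standard sperm against a floor of 3 fragments, taking the sperm value without error. With the counting error of both libraries the lower limit of its ratio was log2 5.20. Skint4 (chromosome 4, 111754074) had 51.5 fragments in standard sperm and none in ES cells, at least 26.2-fold higher on the same terms (lower limit log2 4.37). Over the whole 2000 bp to each side both were still at 0 in ES cells, with 139 and 91.0 fragments in standard sperm for Skint9 and Skint4. Their family members Skint10 (chromosome 4, 112447466) and Skint11 (chromosome 4, 113835988) had 60.5 and 53.1 fragments in standard sperm and 56.5 and 49.4 in ES cells. Klri2 (chromosome 6, 129690502), a killer cell lectin-like receptor gene, had 81.3 fragments in standard sperm and 4.50 in ES cells (log2 4.51, 3.54 to 6.86), but a log2 ratio of 1.88 over 2000 bp to each side. Its neighbours Klrc1 and Klri1 had 59.1 and 68.1 fragments in standard sperm and 38.2 and 37.9 in ES cells.

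Klrh1, another killer cell lectin-like receptor gene, and Nlrp1b also had almost no ES cell signal. Both lie outside the rule for named genes and were chosen after their values were seen. Klrh1 (chromosome 6, 129725867) had 46.7 fragments in standard sperm and 2.09 in ES cells, but 76.5 and 17.9 over 2000 bp to each side. Nlrp1b (chromosome 11, 71044235), an inflammasome sensor gene, had 30.1 fragments in standard sperm and none in ES cells over 2000 bp to each side, at least 15.3-fold higher against the floor (lower limit log2 3.54), and its neighbour Nlrp1a had 19.8 and 6.45. All 2088 promoters together held 7 at 0 in ES cells, of which 4 were at 0 in standard sperm as well, and no promoter was at 0 in standard sperm alone. That is 0.335% of the set in ES cells and 0.192% in standard sperm, beside 0.0789% and 0.0667% of all classed promoters. The sperm and the ES cells come from different mouse strains, and strain and cell type cannot be told apart here.

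Among the other promoters with the highest ratios, Hbb-bh1, an embryonic globin gene, had 49.5 fragments in standard sperm and 10.9 in ES cells (log2 2.70, 1.80 to 3.86). Hbb-y, the other embryonic globin of the set, had 62.7 in standard sperm and 24.2 in ES cells (log2 1.95). Reg2, a pancreatic secretory lectin gene, had 50.9 in standard sperm and 12.7 in ES cells. Genes of the testis followed, with Spata31 at 44.3 fragments in standard sperm and 11.95 in ES cells, and Catsperb, a subunit of the sperm calcium channel, at 58.9 and 19.3. Slc9c1, the sperm sodium-proton exchanger, had 55.6 in standard sperm and 20.7 in ES cells. Nxpe5 and Trmt9b completed the 10, with 56.0 and 60.2 fragments in standard sperm against 10.1 and 16.1 in ES cells. Over 2000 bp to each side the log2 ratios of the last 7 were 1.03 to 2.51, and over 200 bp that of Spata31 was 0.31. In the pooled titration series none of these 10 reached 5 fragments in any series, too few to read singly.

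The lowest ratios were smaller in size and stood at genes of mixed roles. Eps8l1, for an adaptor protein of the actin skeleton, had 10.7 fragments in standard sperm and 75.1 in ES cells (log2 -2.09, -3.22 to -1.24). Slc38a8 (chromosome 8, 122025598 in mm9), an amino acid transporter gene, had 8.27 in standard sperm and 51.6 in ES cells (log2 -1.90, -3.38 to -1.01). Cdh5, the cadherin of blood vessel walls, had 10.8 in standard sperm and 59.9 in ES cells, and S100a14, a calcium-binding protein gene of epithelia, had 9.64 and 53.6. The other 6 of the lowest 10 were Lenep, Tmem268, Fgf1, Csad, Spon2 and Septin1, with 9.55 to 14.1 fragments in standard sperm and 43.8 to 60.9 in ES cells. Over 200 bp to each side the log2 ratio of Csad was 0.32 and that of Septin1 0.0741, so their direction depends on the window.

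The keratin, cornified envelope, digestive, placental and milk protein gene lists held more of the promoter signal in standard sperm than in ES cells. Of 22 lists of tissue-restricted genes, 20 had at least 5 promoters in the set. Their pooled log2 ratio of standard sperm to ES cells had an interval above 0 in 15 lists, across 0 in 4 and below 0 in 1, and 9 lists lay above the interval of the whole set. The medians below are over promoters with at least 50 fragments, beside 0.12 for the set and 0.02 for all classed promoters, and no list was tested. Counts of promoters higher in standard sperm stand beside 58.5% of those so read in the set and 50.9% of all classed promoters. For 2-fold higher the same shares were 8.27% and 6.40%. The 34 placental and pregnancy genes had a pooled log2 ratio of 0.56 (0.46 to 0.66) and a median of 0.66, with 29 of 33 read promoters higher in standard sperm and 4 of them 2-fold higher. The deepest of them, Prl3c1 of the prolactin family, had 67.5 fragments in standard sperm and 62.2 in ES cells (log2 0.73), although over 200 bp to each side its ratio was -0.23. The 5 milk protein genes had a pooled ratio of 0.85 (0.59 to 1.11) and 4 of 4 higher. Csn2, which encodes beta-casein, had 72.1 fragments in standard sperm and 51.3 in ES cells (log2 1.09).

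The 34 cornified envelope genes, which build the outer layer of the skin, had a pooled ratio of 0.46 (0.36 to 0.56) with 28 of 32 higher. The deepest of them was Sprr1b, with 63.4 fragments in standard sperm and 78.2 in ES cells (log2 0.31, -0.20 to 0.80). The 23 keratin and keratin-associated protein genes had 0.53 (0.38 to 0.67) with 15 of 18 higher, and Krtap19-4 had 80.3 fragments in standard sperm and 50.0 in ES cells (log2 1.28). Their downstream ratio was low, at 0.234 in standard sperm and 0.385 in ES cells. The list of 40 digestive enzyme and gut secretory genes had 0.50 (0.39 to 0.60), with 24 of 32 higher and 8 of those 2-fold higher. It was matched by symbol and takes in protease genes that are not all of the gut, such as Prss37, Prss55 and Cpa3. Sis, for sucrase-isomaltase, had 75.5 fragments in standard sperm and 51.6 in ES cells (log2 1.15).

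**Figure D5:**
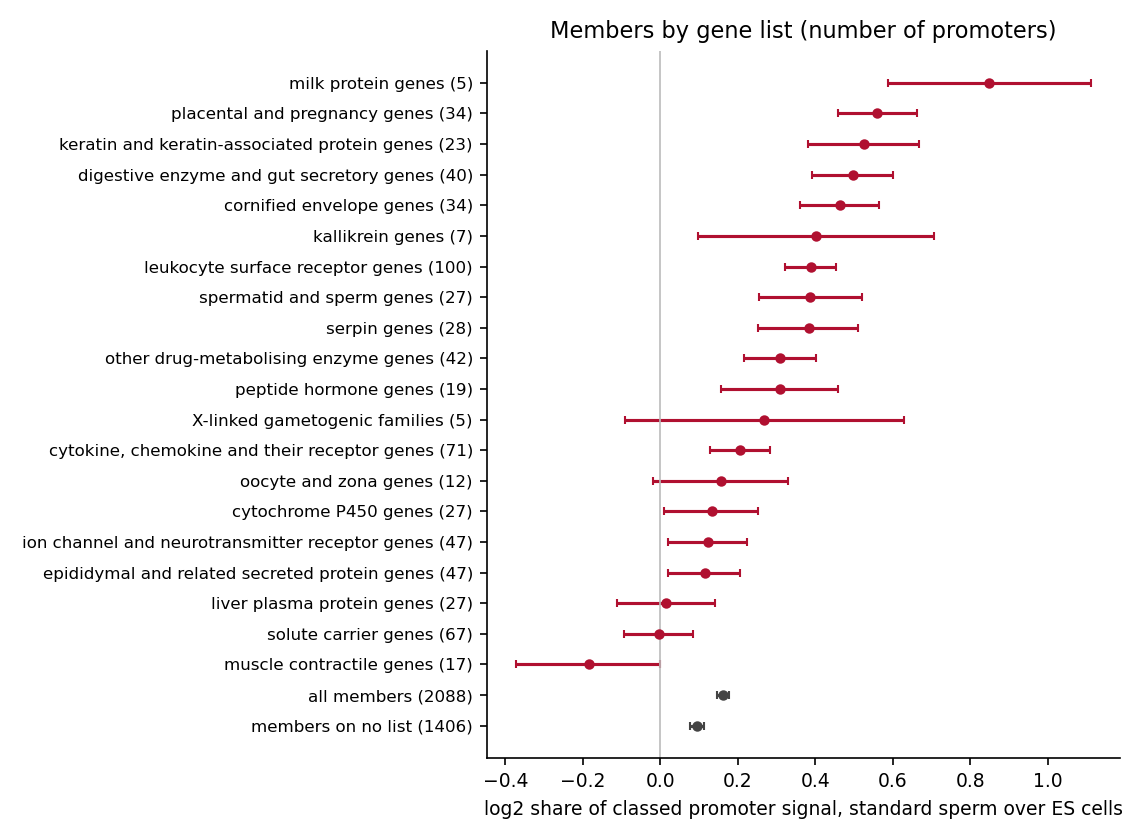
Pooled log2 ratio of the share of classed promoter signal, standard sperm over ES cells, for the 20 gene lists with at least 5 promoters (number in brackets), all members and members on no list, with counting intervals. Milk protein (0.85), placental (0.56) and keratin genes (0.53) lie highest and muscle contractile genes (-0.19) lowest.

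The lists named for the germ line and the genital tract did not have the highest pooled ratios. Other lists also hold such genes, as the solute carrier list holds Slc9c1. The 27 spermatid and sperm genes had a pooled ratio of 0.39 (0.25 to 0.52), with 13 of 20 read promoters higher and 3 of them 2-fold higher. Smcp, for the cysteine-rich protein of the sperm mitochondrial sheath, had 64.1 fragments in standard sperm and 61.2 in ES cells (log2 0.67, 0.15 to 1.21), and Acrv1 had a log2 ratio of -0.28 (-0.81 to 0.22). The 12 oocyte and zona genes had a pooled ratio of 0.16 (-0.02 to 0.33), and Oosp3, for an oocyte secreted protein, had 73.5 fragments in standard sperm and 58.5 in ES cells. The 47 epididymal and related secreted protein genes had 0.11 (0.02 to 0.21). Gpx5, the glutathione peroxidase of the epididymis, had 47.6 fragments in standard sperm and 88.0 in ES cells (log2 -0.26, -0.80 to 0.26). The 5 promoters of X-linked gametogenic families had 0.27 (-0.09 to 0.63), and Rhox1, a homeobox gene of the reproductive tract, had 24.7 fragments in standard sperm and 38.5 in ES cells.

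Immune genes were mixed. The list of 100 leukocyte surface receptor genes, which also holds granule protein genes such as Gzmb and Prf1, had a pooled ratio of 0.39 (0.32 to 0.45). Its median was 0.37, with 56 of 86 higher. The pooled ratio includes Skint9, Skint4, Klri2 and Klrh1, which had little or no ES cell signal, and was not taken without them. Clec12a, a myeloid lectin receptor gene, had 62.0 fragments in standard sperm and 57.8 in ES cells. The 71 cytokine, chemokine and receptor genes had 0.21 (0.13 to 0.28), with 36 of 63 higher, and Ccl9, a chemokine gene, had 60.9 in standard sperm and 80.1 in ES cells. Of secreted enzymes and hormones, the 28 serpin genes had 0.38 (0.25 to 0.51), with Serpini2 at 63.3 fragments in standard sperm and 67.7 in ES cells, and the 7 kallikrein genes 0.40 (0.10 to 0.71), with Klk7 at 40.9 and 49.0. The 19 peptide hormone genes had 0.31 (0.16 to 0.46), and Pth, for parathyroid hormone, had 73.6 in standard sperm and 53.0 in ES cells (log2 1.08). For the insulin genes, Ins1 had 29.8 fragments in standard sperm and 54.95 in ES cells (log2 -0.25, -0.96 to 0.40), with the other sign over 200 bp (1.45) and 2000 bp (0.45), and Ins2 had 17.2 and 26.1 (log2 0.03).

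Liver plasma protein, cytochrome P450, solute carrier and ion channel genes had pooled ratios below the 0.16 of the set, although the intervals of the cytochrome P450 and ion channel lists held that value. The 27 liver plasma protein genes had a pooled ratio of 0.01 (-0.11 to 0.14), with 10 of 23 higher. The 27 cytochrome P450 genes had 0.13 (0.01 to 0.25). Cyp7a1, the rate-limiting enzyme of bile acid synthesis, had 68.6 in standard sperm and 90.2 in ES cells (log2 0.22, -0.25 to 0.69), and Cyp2e1, which oxidises ethanol, had 32.2 and 57.7 (log2 -0.21). The 42 other drug-metabolising enzyme genes had 0.31 (0.22 to 0.40), with 32 of 41 higher. The 67 solute carrier genes had 0.00 (-0.09 to 0.08), and Slc13a1, a sulfate carrier gene, had 56.3 fragments in standard sperm and 62.4 in ES cells. The 47 ion channel and neurotransmitter receptor genes had 0.12 (0.02 to 0.22). The 17 muscle contractile genes had -0.19 (-0.37 to 0.00) and a median of -0.43, with 4 of 13 higher. The deepest of them, Myot, for a protein of the muscle Z-disc, went the other way, with 57.5 fragments in standard sperm and 49.1 in ES cells (log2 0.83, 0.25 to 1.41). Ckm, the creatine kinase of muscle, had 11.5 fragments in standard sperm and 34.3 in ES cells (log2 -0.89, -1.98 to 0.09). Over 200 bp to each side the ratio of 9 of the 51 named promoters had the other sign and over 2000 bp that of 5, and for 6 and 5 of these the interval of the ratio over 1000 bp held 0. Among them were Gm9733, Rhox1, Serpini2, Cyp7a1 and Cyp2e1 over 200 bp (-0.36, 0.34, -0.36, -0.36 and 0.05) and Rhox1, Ins2, Klk7 and Crybb2 over 2000 bp (0.63, -0.51, -0.04 and -0.27). Crybb2, a lens crystallin gene, had 25.95 fragments in standard sperm and 36.95 in ES cells (log2 0.12, -0.68 to 0.86). Of the 682 promoters on a list and 1406 on none, those on none had a pooled ratio of 0.09 (0.08 to 0.11).

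In the titration the lists mostly shared the fall of the set. A slope could be taken for 18 lists and was below 0 in 17, and in 14 of them in each of the 3 series. In 14 lists the slope per doubling was steeper than that of the set at -0.05, among them the digestive (-0.17), cytochrome P450 (-0.15), kallikrein (-0.15) and placental (-0.14) lists. The digestive slope was -0.13 in unspun sperm, -0.04 in the supernatant and -0.35 in the pellet, and the placental one -0.04, -0.09 and -0.28. The solute carrier list was at 0.00 and the keratin list at 0.02, its supernatant slope being 0.11. Each list rests on 22.1 to 743 fragments over the 12 libraries, and the slopes were not tested. On the X chromosome the 88 promoters held 19.8 fragments each in standard sperm and 25.4 in ES cells, which is 0.648 and 0.608 times the autosomal level. These levels were not corrected for the number of X chromosomes per cell, so they do not show a loss of signal per copy. Their log2 ratio of standard sperm to ES cells was 0.25 (0.16 to 0.34), and that of the 2000 autosomal promoters 0.16 (0.14 to 0.17). The slope with dose was -0.14 for X-linked and -0.05 for autosomal promoters.

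No single promoter was called in the titration. Only 72 of the 2088 reached a summed count of 30 over the 8 supernatant and pellet libraries, among 505 of all classed promoters. In edgeR's quasi-likelihood test with Benjamini-Hochberg adjustment over those 505, none was called for dose (0%) and none for supernatant against pellet (0%), in either direction. With 1 library per dose and fraction and a common dispersion of 1.92, this does not show that the tested promoters were unchanged. At an unadjusted p under 0.05 edgeR put 3 of the 72 (4.17%) higher with dose and 0 lower, beside 39 (7.72%) and 0 of the 505. In the supernatant against the pellet it put 4 of the 72 (5.56%) higher and 0 lower, beside 13 (2.57%) and 1 (0.198%) of the 505. The minimum of 30 is met most easily by promoters high in the deepest libraries. These were the 100-unit library of each fraction and, at each dose, the supernatant. The direction of these counts is therefore no result about the set. DESeq2 also called none of the 72, with 3 for dose and 5 for fraction at an unadjusted p under 0.05. The other promoters of the set did not reach the minimum count. With that filter taken off, edgeR still called none of the set, at depths too shallow to read promoters singly.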

How the data were processed

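The authors deposited 2 kinds of table with 1 row per start site and 200 bins. For ES cells, standard sperm and the unspun series the deposited values are a signal, a fragment pileup in 20 bp bins (the names of the tables give fragment lengths of 135 to 165 bp) over 2000 bp to each side. For supernatant and pellet the deposited values are counts per bin at 16493 start sites, with the promoter class per the file headers. Neither is scaled to depth. Bins of the count tables were read as 50 bp over 5000 bp to each side, because overlapping windows of neighbouring start sites share values at that spacing, whereas the labelled steps are 20 bp. The submitters' processing notes name mm9, Bowtie (version not given) and SAMtools 0.1.16. Neither read filters nor the CpG limits of the classes were stated there or in the labels. Titration units follow the title, although 2 pellet samples, those of 5 and 20 units by title, have other units in their description. The number of sperm per titration digest is not given, so titration and standard doses have no common scale. Table totals were 37961 to 226365 counts per count library.

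Symbols and gene identifiers came from RefSeq's gene list for GRCm38.p6. They were used for names, gene families and lists and to match promoter sequences. Members and gene lists were chosen with earlier results of these data known. Dose slopes of log2 values on log2 units, with 1 slope and 3 intercepts, were tested by an exact two-sided permutation of doses within series (13824 orderings) and adjusted over 6 measures. The planned measure by promoter GC was void, since only 77.3% of members had any RefSeq promoter and 80% was required. Ratios of ES cells and standard sperm have exact binomial intervals, with 1 fragment added only for single promoters. Without molecular identifiers, all intervals are for counting error alone. Named promoters are the 10 highest and 10 lowest ratios with at least 50 fragments, the deepest of each list, a fixed list of tissue genes where they are members, and the 5 deepest in each library. One promoter that this rule names is not reported here. Of that fixed list only Ins1, Ins2, Smcp, Csn2, Ckm and Cyp2e1 are members. Promoters were tested in edgeR 4.0.16 with TMM scaling (R 4.3.3), with DESeq2 1.42.0 as the alternative, on counts summed over 1000 bp to each side, after tests on simulated data. Since 1 fragment is counted in several neighbouring bins, summed counts overstate the number of molecules. Other work used Python 3.11.15, numpy 2.4.6, scipy 1.17.1 and pandas 2.3.3. Alternatives were other windows, doses, series, flanks, bins, filters, pseudocounts, totals and tools.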

Additional observations from a re-analysis of the deposited data

How the results depend on the processing

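The fall of the set's share with dose kept its direction and its call in all 16 alternatives (-0.06 to -0.03 log2 per doubling), and so did its difference from high-CpG promoters in all 14 (-0.10 to -0.05). The upstream slope (0.06) was 0.0359 without the lowest and 0.0697 without the highest dose, and the downstream slope (0.07) was 0.0822 and 0.0438, none past the threshold. The difference from receptor promoters (0.10) missed it at 0.0745 without the lowest dose, 0.10 without the third dose, 0.0763 without the supernatant series and 0.0947 without the pellet series. The difference from intermediate-CpG promoters (-0.01) passed it at -0.0179 without the supernatant series, -0.0121 without start sites within 4000 bp of another and -0.00932 (adjusted exact p = 0.0157) over 2000 bp. The log2 ratio of shares of standard sperm to ES cells (0.16) was 0.0897 over 200 bp, 0.0879 over 2000 bp and 0.24 against promoters outside receptor families. The 132 promoters 2-fold higher became 286 over 200 bp and 75 over 2000 bp. The 58 lower became 149 and 33 over these windows, 34 with 4 fragments added, 104 with a minimum of 20 fragments and 106 with none. The supernatant ratio at 100 units (0.35) was 0.22 with 20 bp bins. Over 200 bp 3 of the named promoters whose interval excluded 0 turned round (Csad 0.32, Septin1 0.0741, Prl3c1 -0.23). The 24 alternative counts from the promoter-level tests were all 0, and 1 promoter, no member, reached the minimum over 200 bp, so that window was not run there. The GC measure was not run. The cause of each move was not tested, beyond the fewer doses or series used. No paired analysis was possible because each group is 1 library, so groups share no replicate number, and the supernatant and pellet of a dose make 4 pairs, too few to pass the threshold. Depth limits the titration to sums over promoters.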
